A study of Homo sapiens with 12 samples.

Results

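The transcripts of 10 enzymes of serine synthesis, mitochondrial one-carbon metabolism and transsulfuration were followed in stem cell-derived pancreatic alpha cells under endoplasmic reticulum stress. The genes were taken by symbol (PHGDH, PSAT1, PSPH, SHMT1, SHMT2, MTHFD2, MTHFD1L, ALDH1L2, CTH and CBS) from a count table of 28278 genes. All 10 were in the table and all 10 passed the filter on low counts, as did 17137 genes in all. The cells were made from HUES-8, a widely used human embryonic stem cell line, and bulk RNA sequencing was done on 6 samples kept with the solvent DMSO and 6 kept with 5 µM tunicamycin. Both treatments lasted 48 h in bioreactors of 30 mL turning at 40 rpm, and neither group carried a genetic change named in the labels. Samples numbered 1 to 3 of each group were sequenced in batch 1 and samples numbered 4 to 6 in batch 2. The model is 1 cell line, and the labels call the 6 samples of a group biological replicates without saying whether each was a differentiation of its own. The p-values measure the spread between these replicates. Tunicamycin blocks the first step of N-glycan assembly, so that glycoproteins misfold in the endoplasmic reticulum.

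Cells make serine from a glycolytic intermediate in a short chain: PHGDH oxidises 3-phosphoglycerate, PSAT1 transfers an amino group to the product and PSPH removes the phosphate. Serine hydroxymethyltransferases, SHMT1 in the cytosol and SHMT2 in mitochondria, turn serine into glycine and pass a carbon unit to tetrahydrofolate. In mitochondria MTHFD2 oxidises that unit and MTHFD1L releases it as formate, which leaves for the cytosol, while ALDH1L2 can oxidise the unit to carbon dioxide. CBS joins serine with homocysteine and CTH cleaves the resulting cystathionine to cysteine, the route called transsulfuration. ATF4, a transcription factor made when the stress kinases phosphorylate eIF2α, is known to act at several of these genes.

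Sequence from the RefSeq promoter table (GRCh38.p14) was available for 7 of the 10 genes, in 12 windows, and the 250 bases before each annotated start were searched on both strands for 3 short motifs. PSPH, SHMT2 and ALDH1L2 had no entry. The motif TGATGNAA (TTNCATCA on the other strand), the composite element of ATF4 and C/EBP factors, was held by 3.144% of all 35116 windows of that length and by 3.886% of 27305 genes in at least 1 window. Among the 7 genes its letters were found in MTHFD1L alone, in overlapping windows. The antioxidant response element core TGACNNNGC (GCNNNGTCA), held by 10.907% of windows and 13.217% of genes, was found in 1 of 3 windows of CBS. The CCAAT box (ATTGG on the other strand), held by 32.008% of windows and 36.997% of genes, was found in each of the 7 genes. A single window held 3 of these boxes in PSAT1, 2 in MTHFD2 and SHMT1, 1 in PHGDH and CTH, up to 1 in MTHFD1L and up to 2 in CBS. These motifs do not overlap one another in the stretches shown. The promoters of PSAT1 and MTHFD2, which rose, are shown beside that of SHMT1, which was not called, with CCAAT boxes in capitals on either strand. The stretch of MTHFD1L that holds the composite element is shown with that element in capitals. The stretch of PSAT1 is chr9:78296875-78297124 on the plus strand and that of MTHFD2 is chr2:74198365-74198561 on the plus strand. The stretch of SHMT1 is chr17:18363564-18363800 on the minus strand. These 3 lie upstream of their own gene's exons in GENCODE 29. The MTHFD1L stretch is chr6:150866346-150866375 on the plus strand and overlaps an exon of that gene.
PSAT1: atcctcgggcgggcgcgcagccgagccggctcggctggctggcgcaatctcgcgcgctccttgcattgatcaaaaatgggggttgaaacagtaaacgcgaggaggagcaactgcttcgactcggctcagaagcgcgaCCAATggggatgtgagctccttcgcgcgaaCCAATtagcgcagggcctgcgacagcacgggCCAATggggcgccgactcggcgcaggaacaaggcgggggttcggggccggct
MTHFD2: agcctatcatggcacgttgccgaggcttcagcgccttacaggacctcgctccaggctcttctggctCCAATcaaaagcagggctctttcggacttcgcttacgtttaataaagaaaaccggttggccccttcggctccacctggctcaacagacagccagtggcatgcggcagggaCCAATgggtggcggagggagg
SHMT1: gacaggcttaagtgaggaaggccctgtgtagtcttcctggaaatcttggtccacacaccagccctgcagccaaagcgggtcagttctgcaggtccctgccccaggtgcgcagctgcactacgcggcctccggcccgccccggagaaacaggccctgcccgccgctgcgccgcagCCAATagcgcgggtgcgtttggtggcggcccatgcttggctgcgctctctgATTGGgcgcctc
MTHFD1L: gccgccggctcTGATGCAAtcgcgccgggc
A match is a description of the letters in these windows.

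Tunicamycin-treated samples had more transcripts of PSAT1, SHMT2, MTHFD2, ALDH1L2 and MTHFD1L than DMSO samples, and no member was called lower. The first 4 of these rose 2.26-fold to 2.97-fold, and MTHFD1L rose 1.33-fold. The other 5 members (PHGDH, PSPH, SHMT1, CTH and CBS) were not called. These calls come from the quasi-likelihood test of edgeR, with the batch in the model, at a Benjamini-Hochberg adjusted p of 0.05 over all genes tested, which called 7.84% of genes, 4.56% higher and 3.29% lower. The groups did not overlap for 3 members (PSAT1, SHMT2 and MTHFD2), each higher with tunicamycin, which held for 3.77% of all genes (2.47% higher and 1.3% lower). The treated sample was higher in 6 of 6 pairs for 7 members, as for 10.7% of all genes. The median log2 fold change of the 10 members was 0.79, against -0.01 for all genes tested. It was 0.84 in batch 1 and 0.73 in batch 2. With the sample number as a block in place of batch, PHGDH and CBS were called too, so that 7 members were higher and 0 lower, where 17.3% of all genes were called, 8.92% higher and 8.4% lower. Within batch 1 alone, with 3 samples a group, 0 members were called, where 0.336% of all genes were. Within batch 2 alone PSAT1, SHMT2 and MTHFD2 were called, and 3.93% of all genes. The genes of the set had the same sign in both batches except PSPH (0.06 in batch 1 and -0.24 in batch 2). No interaction of treatment with batch was called for any gene (edgeR, 0.0%, and 0 by DESeq2), 0.986% of genes had an unadjusted interaction p under 0.05, and 0 members were among these.

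**Figure D1:**
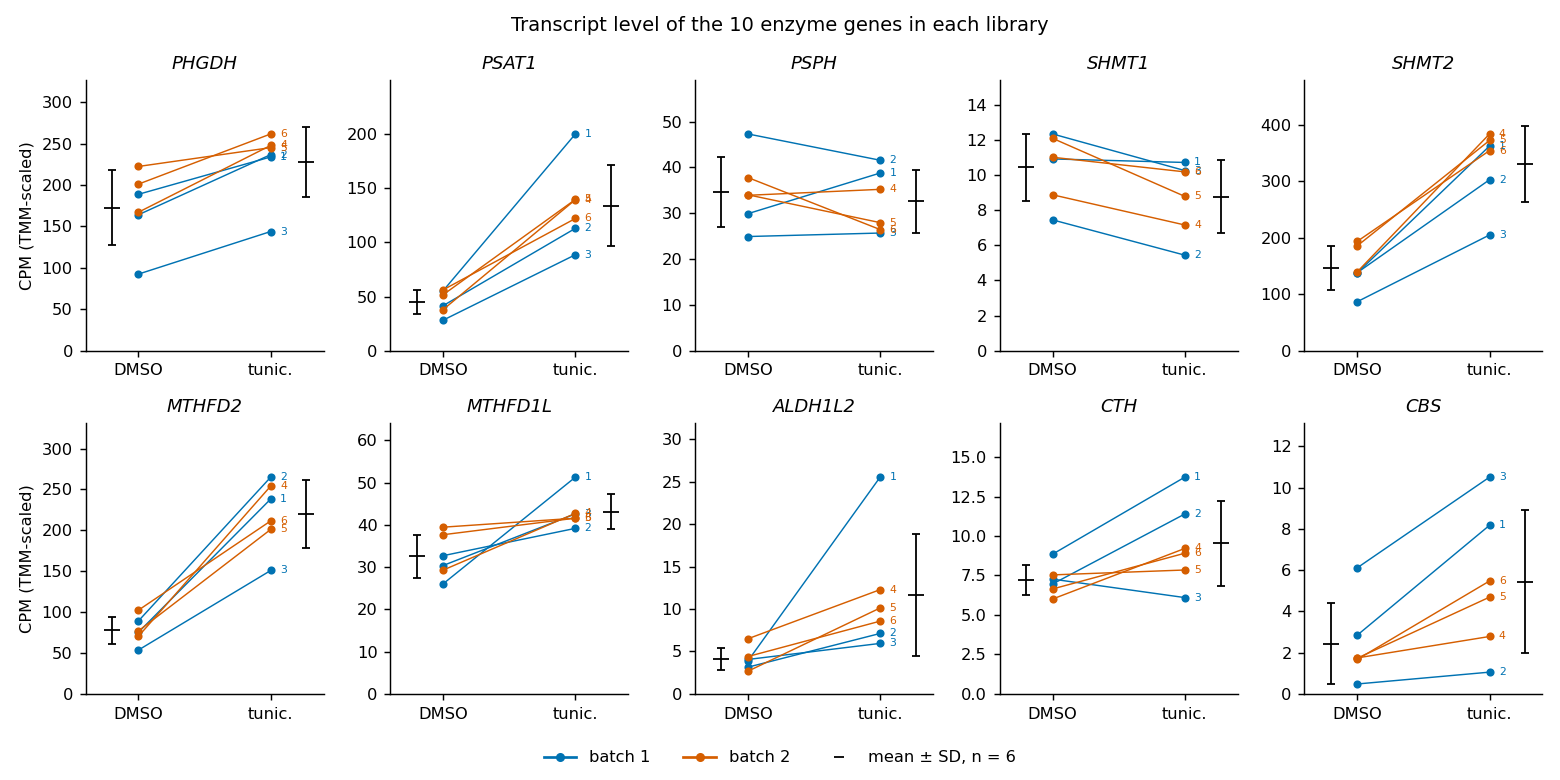
Transcript level in CPM (scaled by TMM factors) of each of the 10 genes in each of the 12 libraries; lines join samples with the same number, colours mark the batch, and black bars are mean ± SD of 6 samples. The treated samples of PSAT1, SHMT2 and MTHFD2 lie above all DMSO samples, while the groups overlap for the other 7 genes.

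Of the serine synthesis enzymes, PSAT1 was the one called with batch as the covariate. Levels are CPM, the counts of a gene per 1e6 counts of the TMM-scaled library. PSAT1 (chr9:78297143-78330093, plus strand, GRCh38) had 28.2 CPM in the lowest DMSO sample, a median of 46.6 and 56.2 in the highest, and 88.6, 131 and 200.0 CPM in the treated samples. Every treated sample was above every DMSO sample, and the treated sample numbered 1 was the highest. The log2 fold change was 1.57 ± 0.20 (SE, n = 6 per group, adjusted p = 0.000264, edgeR), with 1.69 in batch 1 and 1.46 in batch 2. PHGDH (chr1:119648411-119744226, plus strand), the enzyme that opens the pathway, had 92.5, 178 and 222 CPM in DMSO and 144, 241 and 262 CPM with tunicamycin. The groups overlapped, with the samples numbered 3 lowest in both, and each treated sample was above the DMSO sample of the same number. Its log2 fold change was 0.41 ± 0.17, with a 95% interval of 0.05 to 0.77 and an adjusted p of 0.168 (edgeR). With the sample number as a block the value was 0.43 ± 0.08 and the adjusted p 0.0047, which is a call. PHGDH was also called without both samples numbered 3 (0.37, adjusted p = 0.0401), an alternative chosen after seeing the data. PSPH (chr7:56011051-56051604, minus strand), which completes serine, had 24.9, 34.0 and 47.3 CPM in DMSO and 25.7, 31.6 and 41.6 CPM with tunicamycin. The treated sample was higher in 3 of 6 pairs, and the log2 fold change of -0.09 had an interval of -0.45 to 0.26 (adjusted p = 0.798, edgeR).

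The mitochondrial and the cytosolic serine hydroxymethyltransferase genes differed in their response. SHMT2 (chr12:57229327-57234935, plus strand) had 86.8, 139 and 194 CPM in the lowest, median and highest DMSO sample and 205, 358 and 384 CPM with tunicamycin. The groups did not overlap, although the treated sample numbered 3 was only just above the highest DMSO sample. SHMT2 rose 2.26-fold (log2 fold change 1.18 ± 0.16, adjusted p = 0.000319, edgeR; 1.27 in batch 1 and 1.10 in batch 2). SHMT1 (chr17:18327860-18363563, minus strand), the cytosolic form, had 7.44, 11.0 and 12.3 CPM in DMSO and 5.43, 9.47 and 10.7 CPM with tunicamycin. The groups overlapped, and the treated sample was the lower one in each of the 6 pairs, as it was for 10.4% of all genes tested. The log2 fold change of SHMT1 was -0.25, with an interval of -0.67 to 0.16 and an adjusted p of 0.494 (edgeR), and with the mesenchymal marker mean as a covariate its sign turned (0.01).

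The 3 enzymes that carry the folate-bound unit onward in mitochondria rose by unequal amounts. MTHFD2 (chr2:74198562-74217565, plus strand), the dehydrogenase, had 53.6, 76.2 and 102 CPM in DMSO and 151, 225 and 265 CPM with tunicamycin. The groups did not overlap. Its log2 fold change of 1.50 ± 0.16 had the lowest adjusted p of the set (6.4e-05, edgeR), and was 1.59 in batch 1 and 1.42 in batch 2. ALDH1L2 (chr12:105019784-105084577, minus strand), the formyltetrahydrofolate dehydrogenase, had 2.67, 3.97 and 6.49 CPM in DMSO and 5.95, 9.35 and 25.5 CPM with tunicamycin. The groups overlapped by 1 treated sample (number 3) that was below the highest DMSO sample, and the treated sample numbered 1 was far above the others. ALDH1L2 rose by 1.50 ± 0.35 on the log2 scale (adjusted p = 0.0173, edgeR; 1.81 and 1.19 in the batches). Without that treated sample the value was 1.03 (adjusted p = 0.0162), and the call was lost when both samples numbered 5 were left out (1.46, adjusted p = 0.0713). MTHFD1L (chr6:150865549-151101887, plus strand), the formate-releasing synthetase, had 26.1, 31.6 and 39.5 CPM in DMSO and 39.2, 42.1 and 51.3 CPM with tunicamycin. The treated sample numbered 2 was within the DMSO range and the other treated samples were above it. The log2 fold change was 0.41 ± 0.11 (adjusted p = 0.0390, edgeR; 0.59 in batch 1 and 0.24 in batch 2). This call was close to the threshold: it held in 3 of 12 fits that left out a sample (without DMSO 5, DMSO 6 or tunicamycin 2), and the adjusted p over the 12 ran from 0.0244 to 0.0923. It was also lost without both samples numbered 1, where the value was 0.29 (adjusted p = 0.132).

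Neither transsulfuration gene was called with batch as the covariate. CTH (chr1:70411218-70439851, plus strand) had 6.01, 7.12 and 8.85 CPM in DMSO and 6.10, 9.06 and 13.7 CPM with tunicamycin. The groups overlapped, and the treated sample was higher in 5 of 6 pairs, with number 3 the exception. Its log2 fold change was 0.40 ± 0.19 (adjusted p = 0.227, edgeR). CBS (chr21:43053191-43076943, minus strand) varied most between samples of a group on the log2 scale, at 0.481, 1.74 and 6.11 CPM in DMSO and 1.06, 5.08 and 10.5 CPM with tunicamycin, from 13 to 279 counts a sample. The samples numbered 2 were the lowest and those numbered 3 the highest in both groups, and each treated sample was above its same-numbered DMSO sample. The log2 fold change was 1.20 ± 0.53, with an interval of 0.06 to 2.34 (adjusted p = 0.205, edgeR). With the sample number as a block it was 1.21 ± 0.21 (adjusted p = 0.0021), which is a call. Counts of CBS are uncertain, because 94.6% of the 50-base stretches of its transcript are also found in CBSL, an annotated near-identical copy (chr21:6444869-6468040, minus strand). CBSL had 0 to 12 counts a sample and did not pass the filter, and no source used here says how reads that match both were counted.

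**Figure D2:**
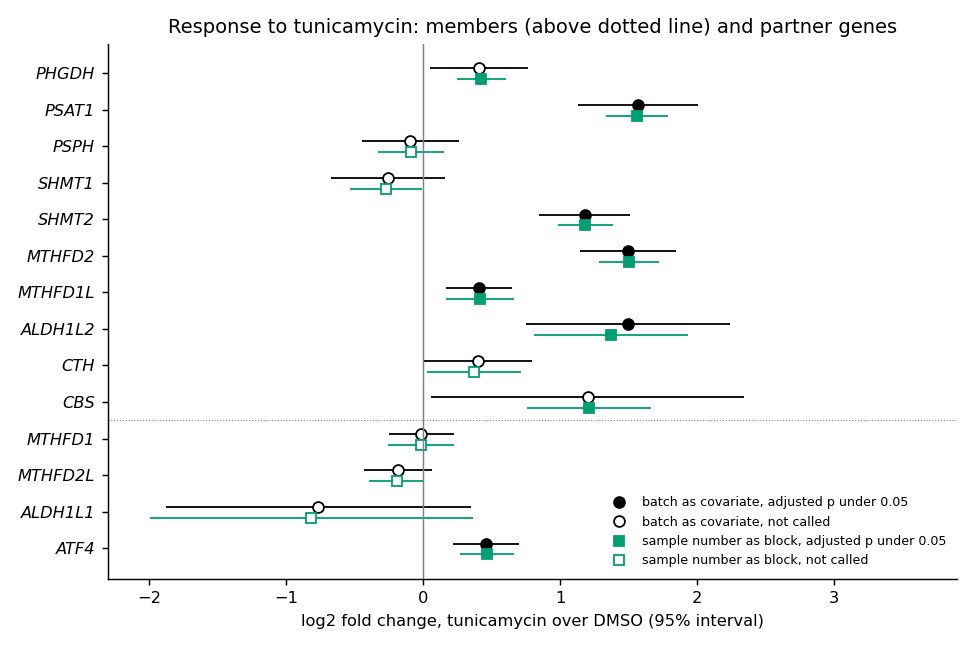
Log2 fold change of each member and of 4 partner genes with its 95% interval, from the fit with batch as a covariate (black) and with the sample number as a block (green); filled symbols have an adjusted p under 0.05. The intervals of PSAT1, SHMT2, MTHFD2 and ALDH1L2 lie furthest above 0, and PHGDH and CBS change from open to filled under the block.

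The mitochondrial enzymes have cytosolic partners, and like SHMT1 these were not called. MTHFD1, the cytosolic enzyme that combines these folate activities, had 34.6 ± 3.7 CPM (SD, n = 6) in DMSO and 34.4 ± 4.7 CPM with tunicamycin, a log2 fold change of -0.01 with an interval of -0.25 to 0.23 (adjusted p = 0.966, edgeR). MTHFD2L, a mitochondrial relative of MTHFD2, had 26.1 ± 2.3 and 23.1 ± 4.3 CPM (-0.18, interval -0.43 to 0.07, adjusted p = 0.399). ALDH1L1, the cytosolic relative of ALDH1L2, was near the detection limit at 2 to 22 counts a sample, and its log2 fold change of -0.76 had an interval of -1.88 to 0.35 (adjusted p = 0.430).

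The ratio of mitochondrial to cytosolic transcripts was compared within each library, where the library scaling cancels apart from the 0.5 added to each count. Ratios are log2 of counts plus 0.5 and are not corrected for gene length, so the difference between groups is what they show. The log2 ratio of SHMT2 to SHMT1 was 2.81 to 4.21 in DMSO samples and 4.32 to 5.79 in treated samples, with means of 3.79 ± 0.51 and 5.24 ± 0.54 (SD, n = 6). The groups did not overlap, and the ratio was higher in 6 of 6 pairs. The difference of 1.45 had p = 0.005 in a two-sided exact permutation test within batches, the smallest its 400 arrangements can give, and 0.01 after adjustment over 4 ratios. For MTHFD2 to MTHFD1 the log2 ratio was 0.49 to 1.46 in DMSO and 2.00 to 3.14 with tunicamycin, again without overlap (difference 1.52, exact permutation p = 0.005, adjusted 0.01). For MTHFD1L to MTHFD1 the groups overlapped, and the pair numbered 5 went the other way (difference 0.43, exact permutation p = 0.04, adjusted 0.04). For ALDH1L2 to ALDH1L1 the groups overlapped too, and the pair numbered 6 went the other way (difference 2.16, exact permutation p = 0.015, adjusted 0.02). With 5 counts added in place of 0.5, the difference of ALDH1L2 to ALDH1L1 was 1.80 (exact permutation, adjusted p = 0.00667). Over same-numbered pairs, where 64 sign arrangements allow no p below 0.03125, the exact sign-flip test gave adjusted p-values of 0.0625, 0.0625, 0.0938 and 0.0833 for the 4 ratios in the order given.

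**Figure D3:**
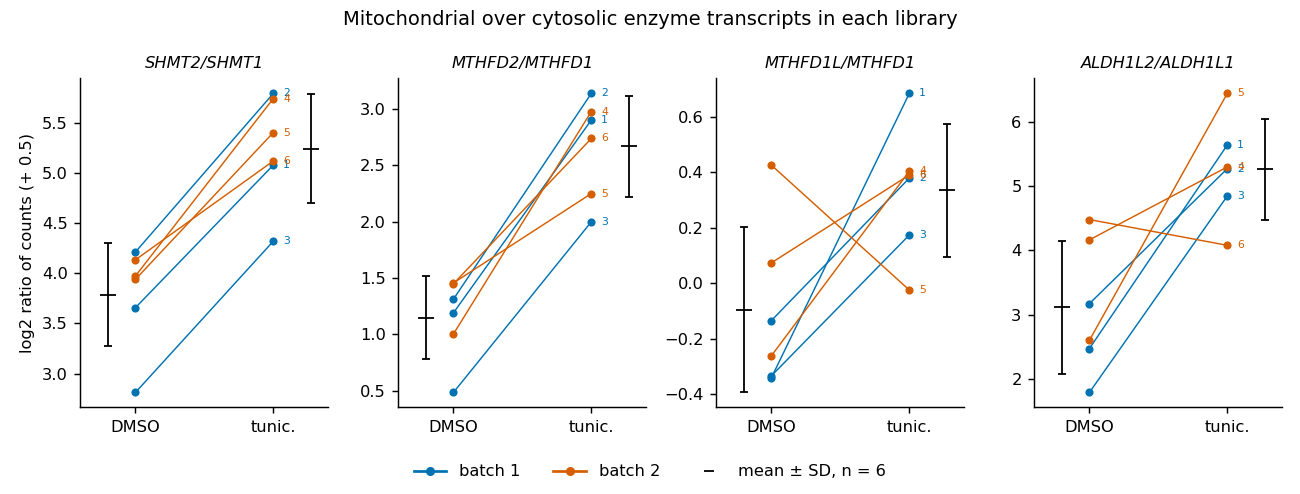
Log2 ratio of counts (plus 0.5) of a mitochondrial enzyme gene over its cytosolic partner in each library; lines join samples with the same number, colours mark the batch, and black bars are mean ± SD of 6 samples. The ratio rises in all 6 pairs for SHMT2/SHMT1 and MTHFD2/MTHFD1 and in 5 of 6 pairs for the other ratios.

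Levels can be compared between genes per length. Per kb of the union of annotated exons, SHMT2 had the highest DMSO level of the set at 30.4 ± 8.0 CPM per kb (SD, n = 6), followed by PSAT1 (20.6 ± 5.1), PHGDH (18.7 ± 4.9), MTHFD2 (16.0 ± 3.4) and PSPH (12.5 ± 2.7). The sample ranges of neighbours in that order overlapped. MTHFD1L followed at 6.50 ± 1.02, CTH at 2.99 ± 0.40 and SHMT1 at 1.43 ± 0.26 CPM per kb, and from PSPH down to ALDH1L2 (0.483 ± 0.156) each range lay above the next. CBS was at 0.358 ± 0.288 CPM per kb, within the spread of ALDH1L2. With tunicamycin SHMT2 (68.2 ± 13.9 CPM per kb) and PSAT1 (61.1 ± 17.2) led, and MTHFD2 (45.2 ± 8.6) stood above PHGDH (24.8 ± 4.6). The order depends on the length used: with the longest coding transcript, an alternative chosen after seeing the data, PHGDH came first in DMSO (66.8 ± 17.4) and SHMT2 next (57.9 ± 15.3). SHMT1 then stood above CTH, and CBS above ALDH1L2.

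Some samples with the same number, but not all, deviated alike in several members. PHGDH, PSAT1, PSPH, SHMT2 and MTHFD2 were each at their lowest of the group in DMSO 3 and again in tunicamycin 3, and tunicamycin 3 was also lowest for ALDH1L2 and CTH. CBS and SHMT1 went the other way in these samples. CBS was highest in both, and SHMT1 was highest in DMSO 3 and above its group mean in tunicamycin 3 (log2 deviations of 0.26 and 0.27). For SHMT2 the deviation from the group mean was -0.71 in DMSO 3 and -0.66 in tunicamycin 3 on the log2 scale, and for PHGDH it was -0.85 and -0.64. ATF4 was lowest of its group in the same samples, at 332 and 496 CPM. The samples numbered 2 were lowest for SHMT1 and CBS in both groups. Tunicamycin 1 was highest of its group for 5 members (PSAT1, SHMT1, MTHFD1L, ALDH1L2 and CTH). In DMSO 1, by contrast, MTHFD1L was lowest of its group (log2 deviations of -0.31 in DMSO 1 and 0.25 in tunicamycin 1). DMSO 6 was highest of its group for 4 members (PSAT1, SHMT2, MTHFD2 and MTHFD1L), and tunicamycin 6 for PHGDH alone. Without both samples numbered 3, left out after seeing the data, the log2 fold changes of PSAT1, SHMT2 and MTHFD2 were 1.55, 1.16 and 1.49, and all 3 were called.

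**Figure D4:**
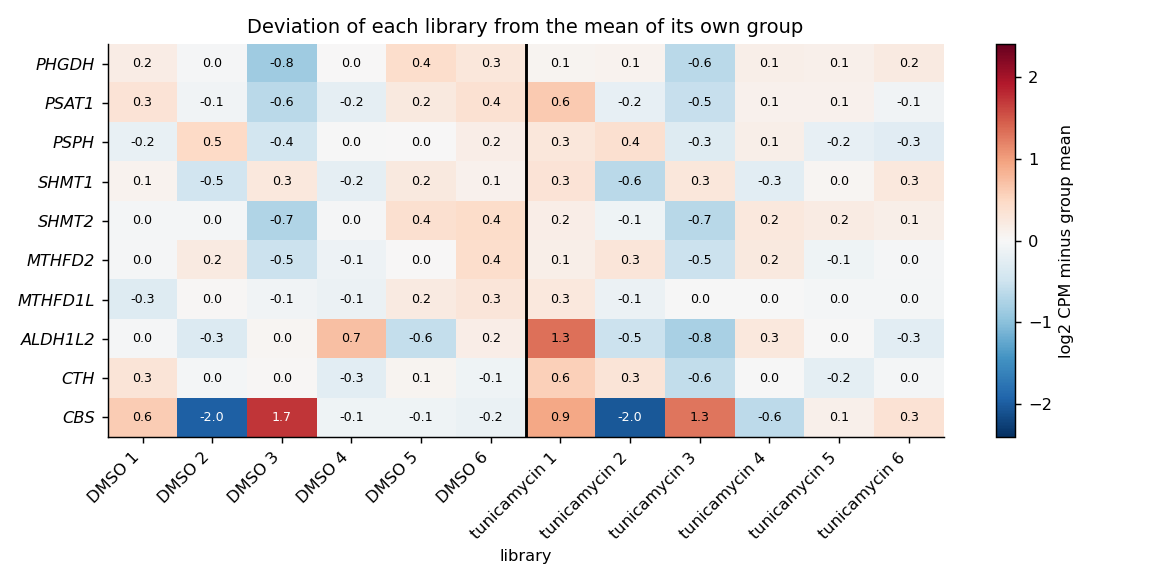
Deviation of log2 CPM from the mean of its own group for each member (rows) in each library (columns); red is above and blue below the group mean, and the vertical line parts DMSO from tunicamycin samples. The columns of the samples numbered 3 are blue for PHGDH, PSAT1, PSPH, SHMT2 and MTHFD2 in both groups. They are red for CBS and, more faintly, for SHMT1.

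The other genes of the pathway were read from 9 lists, of which 86 of 89 genes passed the filter on low counts. Of these 86 genes 12 rose and 5 fell, with a median log2 fold change of 0.04. Over all genes tested 4.56% were called higher and 3.29% lower. Among the higher calls, 4 lay in serine and glycine transport and 4 in the transcription factors, and the other calls were spread over further lists. Of 18 other folate enzymes and carriers 0 rose and 0 fell (median 0.00), among them MTR, the methionine synthase (0.23, adjusted p = 0.410). With the sample number as a block 16 of the 86 genes were called higher and 7 lower, where 8.92% and 8.4% of all genes tested were. Among the 18 folate genes these were DHFR2, higher (0.35, adjusted p = 0.0474, edgeR), and FTCD, lower (-0.72, adjusted p = 0.0207), both named for these calls. None of the 4 genes of the glycine cleavage system, which breaks glycine down in mitochondria, was called (median -0.06; DLD -0.02 and AMT -0.11). None of 11 genes of purine and thymidylate synthesis, the main users of cytosolic one-carbon units, was called either (median -0.04; PAICS 0.06 and IMPDH2 -0.17). These calls are at the same edgeR threshold.

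Genes of serine and glycine transport rose in 4 of 9 cases and fell in 0 (median 0.73), where 4.56% of all genes tested rose. SLC1A4, a neutral amino acid transporter that carries serine, had 28.2, 47.3 and 62.9 CPM in the lowest, median and highest DMSO sample and 90.4, 140 and 169 CPM with tunicamycin. The groups did not overlap, and SLC1A4 rose 2.92-fold (adjusted p = 0.000125, edgeR). SLC6A9, the glycine transporter GLYT1, rose 2.06-fold with overlapping groups (adjusted p = 0.00269), and SLC38A2, which also carries serine, rose 1.66-fold without overlap (adjusted p = 0.00402). SLC1A5, named after its values were seen, was the other call (log2 fold change 1.70, adjusted p = 0.0369), held in 4 of 12 fits that left out a sample and lost among others without tunicamycin 1 (log2 fold change 1.23, adjusted p = 0.103). Of 12 tested genes around serine, lipid and amino acid metabolism, not all of them serine-using enzymes, 2 rose and 2 fell (median 0.12). SPTLC3, a subunit of the serine palmitoyltransferase that starts sphingolipid synthesis, fell from 7.90 ± 2.02 to 2.67 ± 0.34 CPM without overlap (-1.56 ± 0.20, adjusted p = 0.000227). PTDSS1, which makes phosphatidylserine, rose 1.40-fold (adjusted p = 0.00659). SERINC1, known as a serine incorporator, rose 1.52-fold (adjusted p = 0.0248), a call lost without DMSO 1, DMSO 4, DMSO 5, tunicamycin 4 or tunicamycin 5, and without both samples numbered 5 (adjusted p = 0.110). GCAT, a mitochondrial enzyme of threonine breakdown to glycine, named after its values were seen, had a log2 fold change of -0.53 (adjusted p = 0.0328), a call held in 6 of 12 such fits.

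Around transsulfuration, single genes were called in both directions, where 4.56% of all genes tested were called higher and 3.29% lower. In the methionine cycle 1 of 10 genes rose and 1 fell (median 0.03). PEMT, which methylates phosphatidylethanolamine, rose from 65.6 ± 24.9 to 109 ± 33 CPM (1.67-fold, adjusted p = 0.00612, edgeR), in 6 of 6 pairs and with overlapping groups. AHCY, which splits S-adenosylhomocysteine, had a log2 fold change of -0.39 (adjusted p = 0.0474), a call held in 2 of 12 fits that left out a sample (without DMSO 3 or DMSO 6). Of 8 genes of cysteine, hydrogen sulfide and taurine metabolism 0 rose and 1 fell (median -0.02). This gene was SUOX, the sulfite oxidase (-0.37, adjusted p = 0.0325), called in 5 of 12 fits that left out a sample (without DMSO 3, DMSO 6, tunicamycin 2, tunicamycin 3 or tunicamycin 5). Of 8 genes of glutathione synthesis and turnover 1 rose and 1 fell (median -0.09). CHAC1, which degrades glutathione, had 13.5, 25.8 and 31.2 CPM in DMSO and 29.8, 51.6 and 70.2 CPM with tunicamycin, and rose 2.07-fold (adjusted p = 0.00452). GSS, which completes glutathione synthesis, fell from 50.8 ± 6.4 to 34.7 ± 6.0 CPM without overlap (-0.55 ± 0.12, adjusted p = 0.0152), a call lost without both samples numbered 5 (-0.50, adjusted p = 0.0780).

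**Figure D5:**
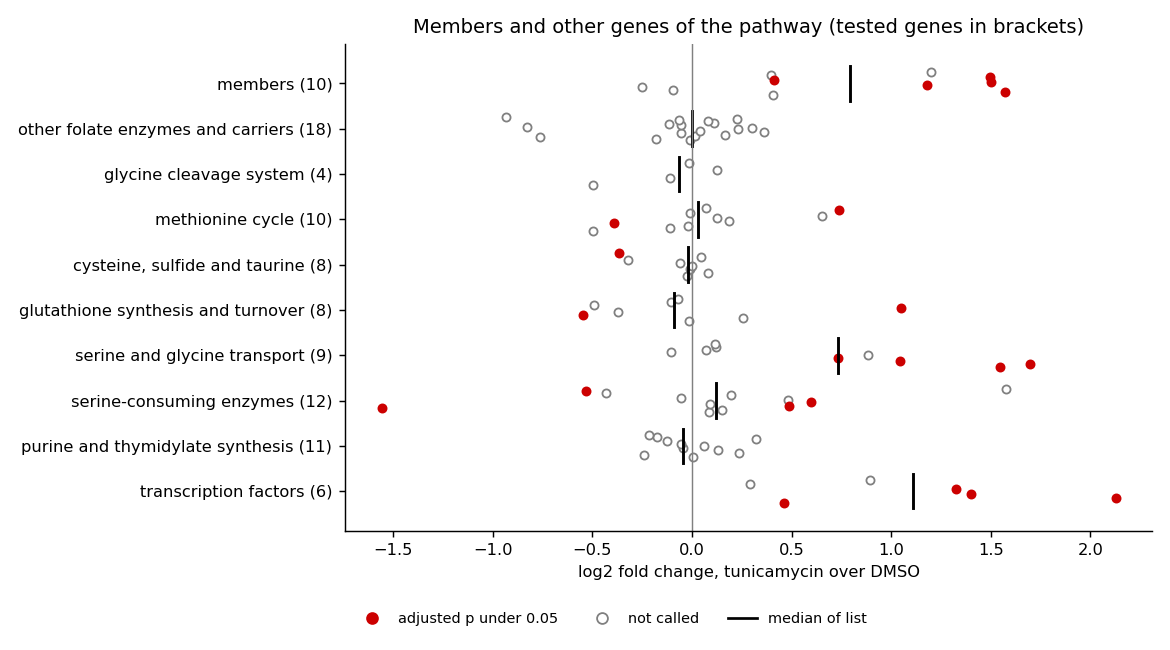
Log2 fold change of every tested member and of every tested gene of the 9 other lists, with the number of tested genes in brackets; red points have an adjusted p under 0.05 and black bars are medians. The medians of the members (0.79), the serine and glycine transporters (0.73) and the transcription factors (1.11) lie to the right of 0, and the other medians lie between -0.09 and 0.12.

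Transcription factors known to act at serine and one-carbon genes rose in 4 of 6 cases (median 1.11), where 4.56% of all genes tested did. With the sample number as a block all 6 were called higher, where 8.92% of all genes tested were. DDIT3, which encodes CHOP, had 21.4, 26.9 and 30.2 CPM in DMSO and 92.4, 118 and 136 CPM with tunicamycin (4.37-fold, adjusted p = 4.06e-07, edgeR), without overlap. CEBPG, a dimer partner of ATF4, rose 2.50-fold (adjusted p = 0.00011, edgeR) and CEBPB rose 2.64-fold (adjusted p = 0.00502), both without overlap. The transcript of ATF4 rose 1.38-fold, less than those of DDIT3, CEBPG and CEBPB (values of the 4 genes, with no test between them), and its call (adjusted p = 0.0218) was lost without DMSO 4 (0.0538) or tunicamycin 4 (0.0582) and with no batch term (0.0604). NFE2L2 (0.29, adjusted p = 0.0831) and MYC (0.89, adjusted p = 0.102) were the factors not called with batch as the covariate.

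Totals ran from 17523442 to 28872269 counts a sample, and the alpha cell markers were present in all libraries. GCG, the glucagon gene, ran from 61679 to 91983 CPM in DMSO and from 44759 to 68819 CPM with tunicamycin. The summed level of the 12 alpha cell markers was 81195 to 120591 and 60462 to 96832 CPM (1 called higher and 2 lower). Over all genes tested 4.56% were called higher and 3.29% lower, and with the sample number as a block 8.92% and 8.4%. Markers of other cell types moved with the treatment as well: the sum of 11 liver and gut markers was 840 to 1334 and 658 to 851 CPM (1 higher, 6 lower), and that of 9 ductal and acinar markers 385 to 582 and 161 to 333 CPM (0 higher, 5 lower). SERPINA1 and VIL1 together made up most of each liver and gut sum. For 12 mesenchymal markers the sum was 206 to 1697 and 118 to 705 CPM (0 called, and 0 higher and 9 lower with the sample number as a block), and for 10 proliferation markers it was 147 to 303 and 120 to 216 CPM (0 called, and 0 and 3). Of 6 beta and delta cell markers 0 were higher and 3 lower, with sums of 1258 to 5785 and 1636 to 3334 CPM. Most of each sum was SST, the somatostatin gene of delta cells, at 957 to 5210 and 1413 to 2874 CPM. The sum of 8 heart muscle markers was 9.85 to 2220 and 10.8 to 1125 CPM (0 called, and 0 higher and 2 lower with the block), with both samples numbered 5 the highest of their groups. The 6 pluripotency markers summed to 12.5 to 46.4 and 9.87 to 89.8 CPM and the 5 neural progenitor markers to 246 to 449 and 118 to 570 CPM, with 0 called in either list. None of these lists had a marker at 0 in all libraries, and in bulk RNA fewer cells of a type and less RNA per cell cannot be told apart. With the mesenchymal mean as a covariate PSAT1 (1.70, adjusted p = 0.00051), SHMT2 (1.16, adjusted p = 0.00188), MTHFD2 (1.34, adjusted p = 0.0004) and ALDH1L2 (1.69, adjusted p = 0.0221) were called by edgeR, CBS was called as well (2.26, adjusted p = 0.0346), and MTHFD1L was not (0.39, adjusted p = 0.127). The same covariate ended the edgeR calls of ATF4 (0.40, adjusted p = 0.112), GSS (-0.45, adjusted p = 0.0947), SERINC1 (0.40, adjusted p = 0.139), AHCY (-0.39, adjusted p = 0.130), SUOX (-0.40, adjusted p = 0.0681) and GCAT (-0.54, adjusted p = 0.105). The part of the markers of the other cell types in the members' values was not tested.

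Counts of some members could include reads of other genes, since no source used here gives the annotation or the strand setting of the counting. In GENCODE 29, 33.2% of the exonic bases of MTHFD2 overlap exons on the opposite strand, of SLC4A5 and AC006030.1, and 9.5% of those of SHMT2 do, of NDUFA4L2 and AC137834.2. SLC4A5 had 36 to 257 counts a sample where MTHFD2 had 1018 to 5831. NDUFA4L2 had 51 to 193 where SHMT2 had 1647 to 8870. For SHMT1 2.7% of exonic bases overlap SMCR8 and for ALDH1L2 1.7% overlap C12orf45, also on the opposite strand. SMCR8 had more counts, 742 to 1889 a sample where SHMT1 had 103 to 318. Its mean was 48.9 CPM in DMSO and 65.7 CPM with tunicamycin. C12orf45 had means of 16.4 CPM in DMSO and 12.7 CPM with tunicamycin, where ALDH1L2 had 4.11 and 11.6 CPM. What these overlaps add to the members' counts was not tested. Stretches of 50 bases shared with other genes made up 8.4% of the PSPH transcript, 4.7% of PSAT1, 3.1% of MTHFD2, 2.6% of SHMT1 and at most 0.3% of the other members apart from CBS.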

How the data were processed

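Bulk RNA was sequenced in 12 samples of alpha cells derived from HUES-8, 6 with DMSO and 6 with tunicamycin. Total RNA was isolated with RNeasy Mini columns and made into NEBNext Ultra II libraries, per the labels' protocols. The authors deposited raw read counts per gene symbol, not normalized. The submitters' processing notes name cutadapt 4.4, HISAT2 2.1.0, featureCounts 2.0.6 and the build GRCh38. No source used here gives the annotation, the strand setting or the handling of reads with several matches.

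From these counts, filterByExpr (edgeR 4.0.16, R 4.3.3), given the design with batch, kept 17137 of 28278 genes. A filter by group alone was tried first and was replaced after its output had been seen, to match an earlier analysis of these data; it kept 16613 genes and called 1349, with the same number of members called (5). Library sizes were scaled by TMM factors and CPM computed from them. Tunicamycin was compared with DMSO by edgeR's quasi-likelihood test, two-sided, with batch as covariate and Benjamini-Hochberg adjustment over all genes tested, at 0.05. Standard errors are the log2 fold change over the root of the F statistic. Alternatives used DESeq2 1.42.0, limma-voom (limma 3.58.1), other scalings and filters, other covariates, single batches and fewer samples. The tests were tried on simulated counts, where DESeq2 made more false calls than edgeR. Ratios were tested by exact permutation within batches (Python 3.11.15, numpy 2.4.6). No 2 samples of a group agreed within sampling noise (chi-square per gene of 10.9 to 99.6), so all were counted separately. Totals of 17523442 to 28872269 counts set the precision.

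The members and all lists were chosen with earlier results of these data known. All members were named, with MTHFD1, MTHFD2L, ALDH1L1, CBSL and ATF4. From each other list up to 3 called genes (mean log2 CPM at least 1) were named in order of adjusted p, or the 2 most abundant where none was called; any other gene named is said to be so, and 1 gene that this rule names is not reported here. The motifs were chosen when the promoter sequences were at hand, and which stretches to show was decided after the calls were known. Positions and exons are from GENCODE 29. Equal sample numbers were taken to pair the samples, because the deviations of same-numbered samples from their group and batch means were correlated over genes (Pearson's r of 0.505, 0.579, 0.519, 0.12, 0.184 and 0.182, from number 1 to number 6). What a number stands for is not in the labels, and numbers 4 and 5 correlated more with another number.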

Additional observations from a re-analysis of the deposited data

Results flagged for a closer look

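In 3 of 38 groups of 6 samples 1 sample stood apart from the rest, with a gap to its nearest neighbour above 0.625 of the group's range; chance gives this in about 1 in 20 groups. PHGDH was at 144 CPM in tunicamycin 3, below the other treated samples. MTHFD1L was at 51.3 CPM in tunicamycin 1, above the other treated samples, and without that sample its log2 fold change was 0.34 (adjusted p = 0.0753, edgeR), which is no call. ALDH1L2 was at 25.5 CPM in the same sample, and its call held without it (1.03, adjusted p = 0.0162, edgeR).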

How the results depend on the processing

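PSAT1, SHMT2 and MTHFD2 kept their direction and their call in 25 of 26 alternatives each, all except batch 1 alone, which left 3 samples a group (1.69, 1.27 and 1.59, adjusted p = 0.135, 0.145 and 0.0672, edgeR). The count of genes called over all genes, 1344, was 2100 with DESeq2, 2967 with the sample number as a block, 876 with the mesenchymal covariate, 57 in batch 1, 654 in batch 2, 685 without both samples numbered 5, and 791 (without tunicamycin 4) to 1399 with 1 sample left out. The share of calls that were higher, 58.1%, was 51.5% with the block, 89.5% in batch 1 and 68.7% in batch 2. The 5 members called higher were 0 in batch 1, 3 in batch 2 and 3 without both samples numbered 5, and 4 to 5 with 1 sample left out. The 12 other pathway genes called higher were 1 in batch 1, and 9 to 14 with 1 sample left out. The 5 called lower were 3 with no batch term, 2 with the mesenchymal covariate, 0 in batch 1, 1 in batch 2, 2, 3 and 1 without both samples numbered 1, 3 or 5, and 2 to 6 with 1 sample left out. The ratios SHMT2/SHMT1, MTHFD2/MTHFD1, MTHFD1L/MTHFD1 and ALDH1L2/ALDH1L1 were 1.50, 1.68, 0.68 and 2.78 in batch 1 and 1.41, 1.35, 0.18 and 1.53 in batch 2, where 3 samples against 3 allow no exact p below 0.1. Over same-numbered pairs, the replicate block, they were 1.45, 1.52, 0.43 and 2.16, with the sign-flip p-values given above. With 1 sample left out they ran from 1.28 to 1.61, 1.38 to 1.65, 0.34 to 0.53 (adjusted p = 0.02 to 0.075, exact permutation) and 1.93 to 2.49. PSPH turned sign in batch 1 (0.064) and without DMSO 2 (0.027, in a range from -0.19 with 1 sample left out), and SHMT1 with the mesenchymal covariate (0.014). MTHFD1L lost its call also without TMM factors (adjusted p = 0.0564), without the filter (0.0520) and without the batch covariate (0.0529). The block changed no other call of a member than those of PHGDH and CBS. The cause of these changes was not tested, and some settings also leave fewer samples. Without both samples numbered 1, 3 or 5, and with the filter by group alone, the settings were chosen after seeing the data. Counts were low for ALDH1L1 (2 to 22 a sample) and CBSL (0 to 12).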
